A study of Drosophila melanogaster with 11 samples.

Results

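The genes described here encode the subunits of the proteasome of Drosophila melanogaster. They are the 47 genes, of 16727 in the count table, whose symbols begin with Prosalpha, Prosbeta, Rpn or Rpt followed by a number or with Pros followed by a number. Of these, 14 encode the core particle, 18 the regulatory particle, and 15 are paralogues of subunits. RNA was taken from the third antennal segment, which carries most of a fly's smell receptors. Wild type (WT) flies were of the w1118 strain, and KO flies carried the mir-284 KO, a knockout of a microRNA gene, after repeated outcrossing to w1118, so that all groups share the w1118 background. Both genotypes were sampled 3 d and 25 d after eclosion, with 3 libraries each for WT 3 d, WT 25 d and KO 3 d and 2 for KO 25 d. The design text calls the replicates biological; sex, batch and date are not given in the sources used here.

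The proteasome is the protease that degrades proteins tagged with ubiquitin. Its core particle is a barrel in which outer rings of alpha subunits gate the entrance and inner rings of beta subunits carry the cutting sites. The regulatory particle caps the barrel: its base holds a ring of ATPases (Rpt) that unfold substrates, scaffolds and ubiquitin receptors, and its lid holds the enzyme that removes ubiquitin. All subunits are needed in fixed proportion, and a feedback through the transcription factor encoded by cnc is known to raise their transcripts together when proteasome activity is low.

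Total counts ran from 24619699 to 55485825 per library, and the 47 genes took 0.292% to 0.409% of them. The mir-284 transcript itself had 0 counts in 11 of 11 libraries, WT included, so these poly(A)-selected libraries checked neither genotype label. In CPM (counts scaled to a common library size with TMM factors, which adjust for differences in makeup), the 6 markers of olfactory neurons summed to 4104 to 5394 in 9 libraries, to 2991 in KO 3 d replicate 3 and to 1916 in WT 3 d replicate 3. In KO 25 d replicate 1, 10447 genes were detected, against 11801 to 13682 in the other 10 libraries. Its ribosomal protein genes took 11.1% of counts, against 4.63% to 7.79%, and its TMM factor was 0.702, against 0.978 to 1.11. This library and replicate 3 of both 3 d groups are the 3 libraries that stood apart. Counts and medians of differences over the constitutive genes that turn on one of them are also given or described without it. The count table also holds a KO 25 d column that matched no sample and is not used here, so replicates 1 and 2 of that group were told apart by the number in the column name alone. In such bulk samples fewer cells of a type and less RNA per cell cannot be told apart.

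Of the 47 genes, 39 passed the filter on low counts: 13 of the 14 core genes, 18 of the 18 regulatory genes and 8 of the 15 paralogues. The constitutive core gene that did not pass was Prosalpha1 (2R, 7827303 to 7831788, minus strand, dm6), which was listed at 0 counts in 11 of 11 libraries. Its annotation holds 8 exons, and 98.2% of their bases also belong to other genes. These are CG30382 on the same strand, which was listed at 0 as well, and CG18853 and phr on the other strand. The recorded counting command did not ask for reads shared by overlapping genes to be counted, so the 0 does not measure the level of Prosalpha1. The other 31 constitutive genes had at most 15.7% of their exon bases in common with other genes (Rpn9). Of them, 12 had any, and none with a gene on the same strand. For Rpt6 the shared part was 13%, with CG1801 on the other strand; because strand was ignored in counting, reads there cannot be assigned to one gene.

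The 31 measured constitutive transcripts were abundant in the antenna and lay close together. Per kilobase of exon, their mean levels over 11 libraries ran from 52.6 CPM for Rpn1, the scaffold that receives ubiquitin shuttles, to 141.4 CPM for Prosbeta5, which carries the chymotrypsin-like site, and for Prosalpha3, a subunit of the gate ring. Without KO 25 d replicate 1 the mean of Prosbeta5 was 137.3 and that of Prosalpha3 125.6, below the 131.6 of Prosalpha5, another gate subunit. The median of the 31 was 85.1 CPM per kilobase, against 9.32 over the 11867 genes tested, and the lowest member lay above 87.8% of all genes. In WT 3 d the highest level per length was 2.59 times the lowest, with a coefficient of variation across subunits of 27.2%; in WT 25 d these values were 2.56 and 25.9%.

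Core transcripts were higher per length than regulatory ones, with medians of 102.3 and 65.4 CPM per kilobase in WT 3 d. Core genes have short exons in total (815 to 1215 bases, median 973), while regulatory genes run from 995 to 3412 bases (median 1589), so length and class are confounded. Within the alpha ring Prosalpha3 had the highest mean over 11 libraries and Prosalpha6 the lowest, at 109 ± 12.7 and 70.3 ± 8.41 CPM per kilobase in WT 3 d (SD, n = 3). In WT 3 d itself, and over the 10 libraries other than KO 25 d replicate 1, Prosalpha5 was the highest of the ring, at 129.9 CPM per kilobase in WT 3 d. Within the beta ring Prosbeta5 (126 ± 23.1) was highest and Prosbeta7, which has no cutting site, lowest (72.8 ± 8.15) in the same group. The ATPases ranged from Rpt4 (57.0 ± 5.65) to Rpt6 (94.3 ± 23.4), and the scaffolds and receptors of the base from Rpn1 (50.1 ± 11.6) to the ubiquitin receptor Rpn10 (63.2 ± 10.3). In the lid, where Rpn12 was highest and Rpn9 lowest over 11 libraries, Rpn12 stood at 67.7 ± 11.2 and Rpn9 at 57.1 ± 8.92, a gap smaller than the SD of Rpn12; without KO 25 d replicate 1 Rpn6 and Rpn3 took these places.

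**Figure D1:**
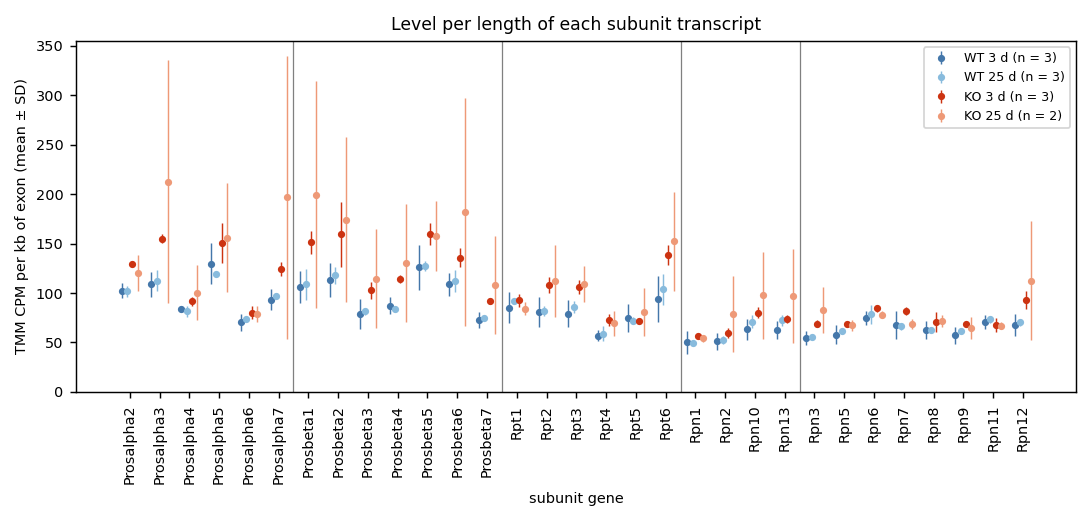
Level per length (TMM CPM per kilobase of exon, mean ± SD over the libraries of a group) of each of the 31 measured constitutive subunit transcripts, in the order alpha ring, beta ring, ATPase ring, base, lid, with vertical lines between them. Core subunits lie above most regulatory ones in each group, and the error bars of KO 25 d (n = 2) are wide because its replicate 1 is high.

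At 3 d, the mean levels of most proteasome transcripts lay above WT in KO antennae, by similar small amounts, but no single gene passed the test. Of the 31 constitutive transcripts, 29 had a higher mean in KO, with a median log2 fold change of 0.33, or 1.26-fold, against -0.01 over all genes tested. Summed over the constitutive genes, levels were 4104, 4015 and 4093 CPM in KO 3 d and 3719, 3455 and 2758 CPM in WT 3 d (replicates 1, 2 and 3, as in all lists of values here). The 3 KO libraries lay above the 3 WT libraries, and the spread was wide only in WT. By edgeR's quasi-likelihood test 0 of 39 members had a Benjamini-Hochberg adjusted p under 0.05, the threshold for a call, where 1.39% of all genes were called. DESeq2 called 0 as well. At an unadjusted p under 0.05, 4 members were higher and 0 lower, against 5.64% of all genes that were higher at that p. The test takes its spread from all 11 libraries, and more members were higher at that p when either KO 25 d library was left out. The median log2 fold change at 3 d was then 0.32 without KO 25 d replicate 1 and 0.33 without replicate 2.

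By overlap of libraries, the beta ring was the most uniform part at 3 d. Each of its 7 subunits was higher in every KO library than in every WT library, against 13.9% of all genes. The log2 fold changes of the 7 were 0.32 to 0.52. Prosbeta1, which carries the caspase-like site, was at 128, 120 and 139 CPM in KO 3 d and at 101, 95.3 and 74.7 CPM in WT 3 d. Its log2 fold change was 0.52 (SE 0.27, adjusted p = 0.550 by edgeR). Prosbeta2, with the trypsin-like site, was at 158, 135 and 201 CPM in KO 3 d, above the 131, 122 and 97.0 CPM of WT 3 d (log2 0.50, SE 0.25, adjusted p = 0.526 by edgeR). The groups of both genes did not overlap, and replicate 3 was the highest KO and the lowest WT library in each. Prosbeta5 was at 191, 188 and 167 CPM in KO 3 d and at 165, 151 and 114 CPM in WT 3 d, with log2 0.34 (SE 0.17, adjusted p = 0.515 by edgeR). For Prosbeta5 the lowest KO library lay just above the highest WT library.

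The alpha ring and the regulatory particle followed with more exceptions. In the alpha ring 6 of 6 measured subunits had a higher mean and 3 had groups that did not overlap, among them Prosalpha7, a subunit of the gate ring, at 123, 114 and 128 CPM in KO 3 d, above the 100.5, 92.5 and 80.7 CPM of WT 3 d (log2 0.41, SE 0.31, adjusted p = 0.732 by edgeR). Prosalpha2 had the lowest p of all members at this age (log2 0.34, SE 0.13, unadjusted p = 0.0205, adjusted p = 0.308 by edgeR). Of the ATPases, 5 of 6 had a higher mean, and Rpt3, Rpt4 and Rpt6 were at an unadjusted p under 0.05. Rpt3 was at 167, 173 and 152 CPM in KO 3 d and at 142, 126 and 99.7 CPM in WT 3 d (log2 0.42, SE 0.16, adjusted p = 0.332 by edgeR), with no overlap. Rpt6 had the highest log2 fold change of any constitutive member, 0.55 (SE 0.23, adjusted p = 0.394 by edgeR), from 154, 148 and 94.7 CPM in WT 3 d to 202, 177 and 204 CPM in KO 3 d. Rpt5 was the ATPase with a lower mean in KO (log2 -0.07, SE 0.19). Its 2 highest libraries at this age were WT 3 d replicates 1 and 2, at 139 and 131 CPM.

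Rpn11, the lid enzyme that removes ubiquitin before degradation, also had a lower mean in KO at 3 d. It was at 80.3, 90.6 and 73.6 CPM there and at 93.7, 87.3 and 76.4 CPM in WT 3 d, with log2 -0.07 (SE 0.13, adjusted p = 0.918 by edgeR), and the groups overlapped. Rpn12, another lid subunit, was at 90.3, 85 and 102 CPM in KO 3 d, while WT 3 d had 75.4, 72.0 and 54.6 CPM (log2 0.46, SE 0.25, adjusted p = 0.574 by edgeR), with no overlap. Rpn1 and the lid scaffold Rpn6 differed little: Rpn1 had 182, 169 and 168 CPM in KO 3 d and 178, 167 and 112 CPM in WT 3 d, and Rpn6 at 161, 160 and 172 CPM against 157, 150 and 130 CPM. For Rpn1 the groups overlapped, and for Rpn6 they did not. Rpn10, a receptor for ubiquitin chains, was at 118, 105 and 120 CPM in KO 3 d and at 103, 92.5 and 74.1 CPM in WT 3 d (log2 0.34, SE 0.22), with no overlap.

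In all, 21 of the 31 constitutive transcripts were higher in every KO 3 d than in every WT 3 d library and 0 were lower in every one, against 13.9% and 11.8% of all genes tested. WT 3 d replicate 3 had the lowest level of all 11 libraries for 27 of the 31. The share of all genes that were lowest in it was not computed. Without that library, 28 of 31 still had a higher mean in KO, and the median log2 fold change was 0.22. Then 0 members were at an unadjusted p under 0.05, where 6.35% of all genes were higher at that p. Without KO 3 d replicate 3, 29 of 31 had a higher mean, the median was 0.31, and 2 were higher at an unadjusted p under 0.05, where 4.41% of all genes were. Without the 3 libraries that stood apart, 29 of 31 were higher, the median was 0.19, and 6 members were called, where 12.5% of all genes were: Prosalpha2 (log2 0.30), Prosalpha3 (0.43), Prosalpha7 (0.29), Prosbeta4 (0.34), Prosbeta7 (0.28) and Rpt3 (0.33), at adjusted p of 0.0149 to 0.0435 by edgeR. With the replicate number as a block in a fit of the 3 d groups alone, 1 member was called, Prosalpha3 (log2 0.51, SE 0.09, adjusted p = 0.0312 by edgeR), where 8.01% of all genes were, and 17 were higher at an unadjusted p under 0.05, where 13.4% of all genes were. Prosalpha3 was at 155, 152 and 146 CPM in KO 3 d and at 117, 109 and 92.7 CPM in WT 3 d, and it was also the 1 member called when KO 25 d replicate 1 or replicate 2 was left out (adjusted p = 0.0442 and 0.0410 by edgeR), where 4.7% and 4.68% of all genes were called.

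**Figure D2:**
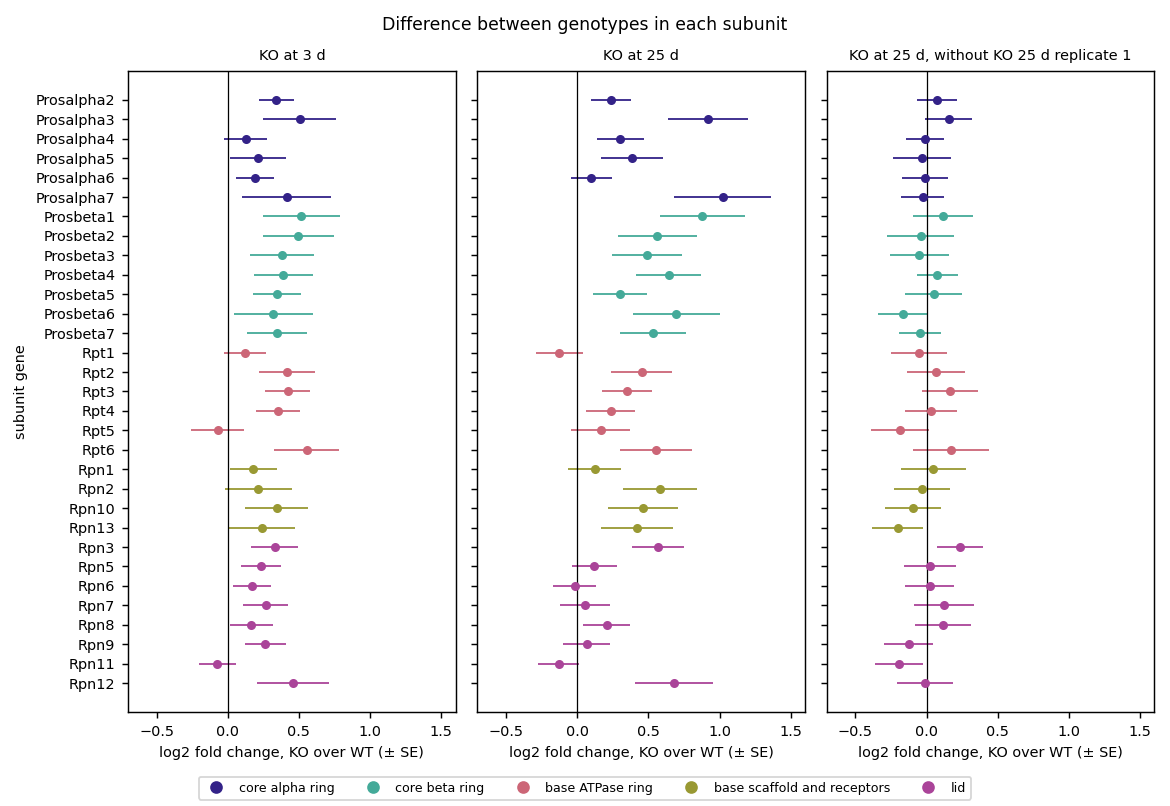
Log2 fold change of KO over WT (± SE from edgeR) for each constitutive subunit transcript at 3 d, at 25 d, and at 25 d without KO 25 d replicate 1; colours mark the subcomplex. At 3 d 29 of 31 points lie above 0; at 25 d 28 of 31 do, and 15 of 31 without that library.

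Of the markers of other cells, some passed the test at 3 d and some did not. The antennal support-cell markers, 5 in the table (the sixth listed name, Obp76a, is an older name of lush), summed to 43210 to 56490 CPM in KO 3 d and 25540 to 33900 CPM in WT 3 d, with 4 of 5 higher in KO, 0 called and none at 0 CPM. Muscle markers were lower in 6 of 6 genes, 2 of them called, at sums of 310.0 to 908 CPM against 769 to 1540 CPM. The male-specific RNAs roX1 and roX2 summed to 755 to 1244 CPM in KO 3 d and 2468 to 3817 CPM in WT 3 d, and yolk and storage protein genes to 2067 to 8511 CPM against 16.01 to 5150 CPM. Of roX1 and roX2, 1 was called; of the 4 yolk and storage protein genes 0 were, and Lsp2 had a lower mean in KO (log2 -1.97). Of 4 hemocyte markers 1 was called, NimC1, higher in KO (log2 2.87, adjusted p = 0.00398 by edgeR), and the other 3 had lower means. The part of cell makeup and of sex in the proteasome values was not tested.

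At 25 d the KO libraries disagreed, and the comparison of genotypes turned on 1 of them. Summed constitutive levels were 5549 CPM in KO 25 d replicate 1 and 3458 CPM in replicate 2, against 3512, 3503 and 3233 CPM in WT 25 d. Replicate 1 was the highest and replicate 2 lay within the range of WT. With both, 28 of 31 constitutive transcripts had a higher mean in KO, and the median log2 fold change was 0.39, or 1.31-fold, against -0.04 over all genes. By edgeR 0 of 39 members were called, where 1.74% of all genes were called. At an unadjusted p under 0.05, 9 constitutive members were higher, against 12.8% of all genes that were higher at that p, and 1 paralogue was lower. DESeq2 called 3: Prosalpha3 (log2 0.92, adjusted p = 0.0360) and the lid subunit Rpn3 (0.56, adjusted p = 0.0469) higher, and the paralogue Prosalpha4T1 lower, where it called 9.15% of all genes. In every KO library 10 of 31 were higher and 2 lower than in every WT library, against 14.6% and 18.4% of all genes. The 2 lower ones were Rpt1 and Rpn11.

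Without KO 25 d replicate 1, 15 of 31 transcripts had a higher mean in KO at 25 d, the median log2 fold change was -0.01, and 0 members were called by edgeR, where 1.03% of all genes were called. Then 0 constitutive members were at an unadjusted p under 0.05, where 9.52% of all genes were. Without replicate 2 in its place, 21 members were called, where 40.3% of all genes were, and the median was 0.71; the lone library is then assumed to vary like the other groups. When libraries were scaled by total counts alone, which removes the low TMM factor of replicate 1, the median was 0.03 with 17 of 31 higher; the median of all genes was then -0.30. Prosalpha7 shows the split: it was at 291 CPM in replicate 1 and 93.3 CPM in replicate 2, against 94.4, 97.5 and 92.2 CPM in WT 25 d. Its log2 fold change was 1.02 (SE 0.34, adjusted p = 0.156 by edgeR) with both libraries and -0.03 (SE 0.15) without replicate 1.

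The catalytic subunits had the same split. Prosbeta1 was at 240 and 101 CPM in KO 25 d and at 100.2, 101 and 77.0 CPM in WT 25 d (log2 0.88, SE 0.30, adjusted p = 0.158 by edgeR). Prosbeta2 was at 241 and 119 CPM in KO 25 d and at 128, 127 and 111 CPM in WT 25 d, and Prosbeta5 at 208 and 151 CPM in KO 25 d and at 151, 145 and 139.6 CPM in WT 25 d. For each, replicate 1 was the highest of the 5 libraries of this age, and replicate 2 lay within or at the edge of the WT range. In the regulatory particle Rpt3 was at 189 and 150.1 CPM in KO 25 d and at 143, 134 and 124 CPM in WT 25 d, and Rpn10 at 183 and 94.9 CPM in KO 25 d and at 109, 103 and 90.3 CPM in WT 25 d. Rpn1 was at 173 and 157 CPM in KO 25 d and at 152, 157 and 146 CPM in WT 25 d, so that its libraries of the genotypes were close.

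Within KO 25 d replicate 1 the excess was uneven across the complex. Its level was 3.03 times the median of the other 10 libraries for Prosalpha7, 2.48 times for Prosalpha3 and 2.38 times for Prosbeta1, but 1.14 times for Prosalpha6. It was the highest library for 12 of 13 core transcripts and for 11 of 18 regulatory transcripts, with median ratios of 1.89 and 1.29. The share of all genes that were highest in this library was not computed. In the regulatory particle Rpn12 was 2.13 times and the scaffold Rpn2 1.95 times the median, while the ATPase Rpt1 was at 0.872, Rpn7 at 0.899, Rpn6 at 0.923 and Rpn11 at 0.978 of it. Rpn12 was at 155 and 69.8 CPM in the KO 25 d libraries, and at 73.4, 70.2 and 66.4 CPM in WT 25 d. Rpn11 was at 84.2 and 77.8 CPM in KO 25 d, against 92.5, 84.8 and 88.6 CPM in WT 25 d.

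The ratio of summed core to summed regulatory CPM does not depend on how libraries are scaled. It was 0.826 in KO 25 d replicate 1, 0.600 in KO 25 d replicate 2, 0.591 to 0.610 in WT 25 d, 0.666 to 0.671 in KO 3 d, and 0.611, 0.609 and 0.664 in WT 3 d. The 3 KO 3 d libraries lay above each WT library, WT 3 d replicate 3 by the least. Across the 31 transcripts the deviation of a library from a gene's mean had a Spearman correlation with exon length of -0.43 in KO 25 d replicate 1, of -0.40 to -0.30 in KO 3 d, of 0.0254 to 0.445 in WT 3 d, of 0.282 to 0.617 in WT 25 d and of 0.429 in KO 25 d replicate 2. Over the 5749 genes at or above 20 CPM on average it was -0.54 in KO 25 d replicate 1 and -0.56 in KO 3 d replicate 3, and -0.0163 to 0.521 in the other 9. Of the longest members, Rpn2 (3412 bases) was at 362 CPM in KO 25 d replicate 1, against 177 CPM in replicate 2. Rpn1 (3041 bases) was at 173 and 157 CPM in these libraries, and Rpn6 (1945 bases) at 146.5 and 156 CPM. Support-cell markers summed to 179200 CPM in KO 25 d replicate 1, against 24940 to 56490 CPM in the other 10. Of the 179200 CPM, Obp19d alone gave 137200. With both KO 25 d libraries, 4 of the 5 markers had a higher mean than in WT 25 d. Obp84a had a lower one, at 34.95 against 58.22 CPM. The part of length and of cell makeup in these values was not tested.

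**Figure D3:**
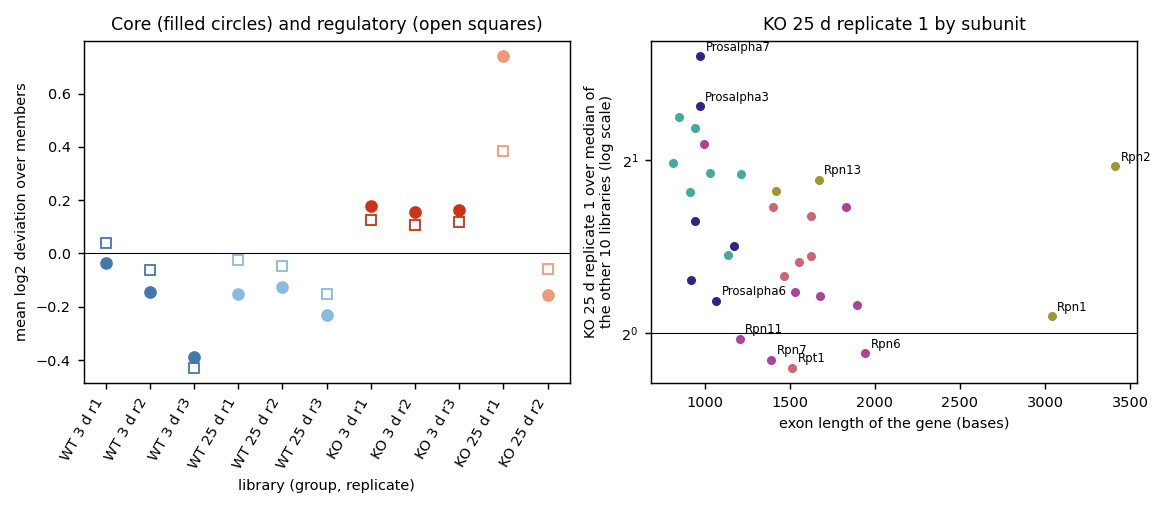
Left, mean log2 deviation from each gene's mean over 11 libraries, for 13 core (filled circles) and 18 regulatory (open squares) transcripts in each library, coloured by group. Right, level in KO 25 d replicate 1 over the median of the other 10 libraries (log scale) against exon length in bases, coloured by subcomplex as in the plot of genotype differences. Core lies above regulatory by 0.357 in KO 25 d replicate 1 and by at most 0.0534 elsewhere.

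With age in WT antennae, no constitutive proteasome transcript changed by more than its standard error. The standard errors rest on the spread in all 11 libraries, KO 25 d replicate 1 included, not on the WT libraries alone. Log2 fold changes from 3 d to 25 d ran from -0.12 for Prosalpha5 to 0.21 for the ubiquitin receptor Rpn13, with standard errors of 0.13 (Prosalpha2) to 0.31 (Prosalpha7), and 0 of 31 were larger than their standard error. By edgeR 0 of 39 members were called, where 0.152% of all genes were called; 0 were at an unadjusted p under 0.05, where 8.07% of all genes were, and DESeq2 called 0. The median was 0.05, with 23 of 31 higher, against -0.01 over all genes. Without WT 3 d replicate 3 it was -0.05 with 2 of 31 higher. No constitutive transcript had groups that did not overlap (0 higher and 0 lower), against 13.1% and 13% of all genes.

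WT 3 d replicate 3, and for some subunits WT 25 d replicate 3, were low within their groups. Rpn6 was at 166, 162 and 132 CPM at 25 d against 157, 150 and 130 CPM at 3 d, and Prosbeta5 at 151, 145 and 140 CPM against 165, 151 and 114 CPM. Among the highest log2 fold changes were those of Rpn13 (0.21, SE 0.23) and Rpn10 (0.17, SE 0.22, 109, 103 and 90.3 CPM at 25 d), and among the lowest those of Prosalpha5 (-0.12, SE 0.20) and Prosbeta4 (-0.05, SE 0.21). The groups of each overlapped. Muscle markers, by contrast, were lower at 25 d in 6 of 6 genes, with sums of 238 to 339 CPM against 769 to 1540 CPM, and 1 of them was called.

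In KO antennae the age comparison again turned on KO 25 d replicate 1. With both 25 d libraries the median log2 fold change was 0.13, with 20 of 31 higher, against -0.04 over all genes, and 0 of 39 members were called by edgeR, where 0.0421% of all genes were called. At an unadjusted p under 0.05 there was 1 member, the paralogue Rpt3R, where 11.8% of all genes were; DESeq2 called 0. Prosalpha7 (0.66, SE 0.34) and Prosalpha3 (0.46, SE 0.28) had the highest values, and Rpn7 (-0.25, SE 0.18) and Rpt1 (-0.14, SE 0.17) the lowest. Rpn6 and Rpn7, both of the lid, were lower in every 25 d than in every 3 d library and 0 were higher in every one, against 12% and 8.03% of all genes. Rpn6 was at 146.5 and 156 CPM at 25 d against 161, 160 and 172 CPM at 3 d.

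Without KO 25 d replicate 1, 0 of 31 constitutive transcripts had a higher mean in the old KO antennae, and the median log2 fold change was -0.25. In the remaining 25 d library, 27 of 31 were below all 3 KO 3 d libraries, 13 of 13 core ones among them. In it, 14 of 31 lay within the range of the 3 WT 25 d libraries. The shares of all genes that did so were not computed, so these counts are not shown to be particular to the proteasome. By edgeR 0 members were called then, where 0.0159% of all genes were. At an unadjusted p under 0.05, 3 constitutive members were lower (Prosalpha7, Prosbeta4 and Prosbeta6), where 4.81% of all genes were. Without replicate 2, 16 members were called, where 32.3% of all genes were, and the median was 0.39. Without the 3 libraries that stood apart, 1 member was called, Prosalpha5 at log2 -0.46 (adjusted p = 0.0463 by edgeR), where 1.74% of all genes were called, against 0.05 with all libraries, and the median was -0.20.

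The difference between the age changes of the genotypes was called for 0 of 39 members by edgeR and by DESeq2, where edgeR called 0.0253% of all genes. At an unadjusted p under 0.05 there were 0, where 6.12% of all genes were. Prosalpha7 (0.61, SE 0.46) and Prosalpha3 (0.41, SE 0.38) had the highest values, and Rpt1 (-0.25, SE 0.22) and Rpn7 (-0.21, SE 0.24) the lowest. The median was 0.07 with both KO 25 d libraries, -0.29 without replicate 1 and 0.43 without replicate 2, when 9 members and 23.6% of all genes were called.

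**Figure D4:**
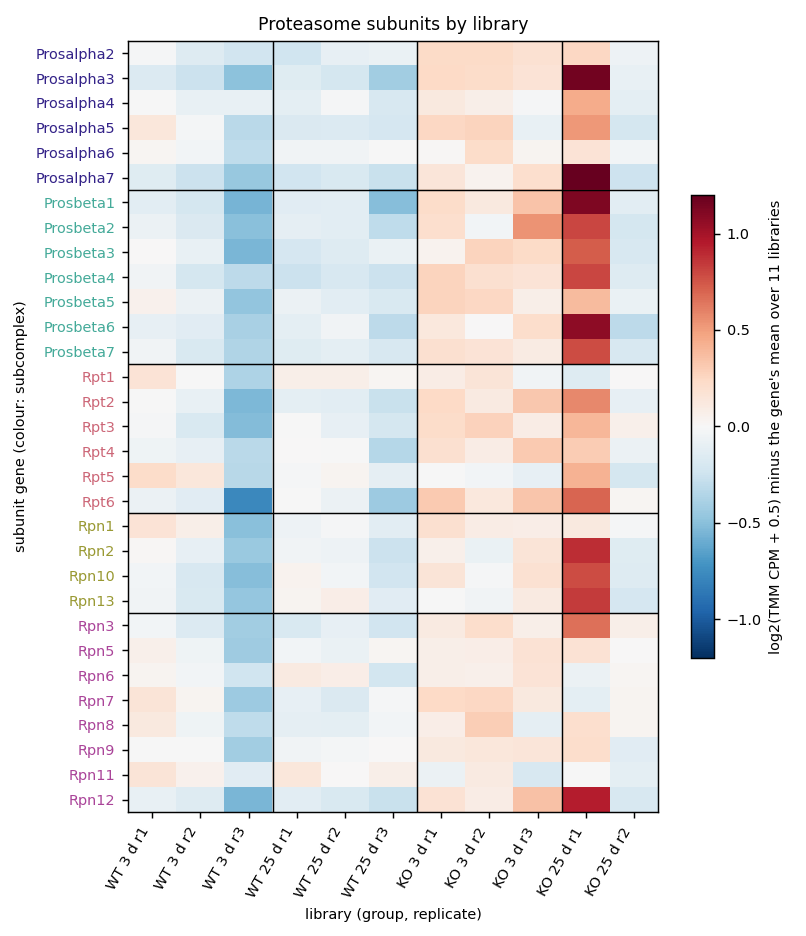
Log2 level (TMM CPM + 0.5) of each measured constitutive subunit transcript in each library, minus the gene's mean over the 11 libraries; lines part the subcomplexes and the groups. KO 3 d columns are mostly red, WT 3 d replicate 3 is the lowest library for 27 of 31 genes, and KO 25 d replicate 1 the highest for 23, with Rpt1, Rpn6, Rpn7 and Rpn11 as pale or blue exceptions. The shares of all genes lowest or highest in these libraries were not computed.

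Transcripts of core subunits varied together over the libraries. Pairs of other genes of like level were not examined, so this is not shown to be particular to the core. As a description, the median Pearson correlation of log2 levels over 11 libraries was 0.889 for 78 pairs of core transcripts, 0.683 for 153 pairs within the regulatory particle and 0.756 for 234 mixed pairs. Without KO 25 d replicate 1 these medians were 0.820, 0.778 and 0.736, and over the 8 libraries without the 3 that stood apart 0.852, 0.551 and 0.700. The libraries of a pair share depth and scaling. The biological coefficient of variation had a median of 0.186 for the constitutive members, against 0.270 over all genes tested. Most of those genes are at lower levels, and genes of like level were not compared. Among the constitutive members it ran from 0.145 for Prosalpha2 to 0.279 for Prosalpha7, above the median of all genes.

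The 15 paralogues, most of them known from the testis of the fly, had low counts beside the constitutive genes. Their summed level was 3.76 to 10.1 CPM per library, and 3 of the 15 had under 10 counts in every library. The highest sum was in WT 3 d replicate 3, where testis markers summed to 12.3 CPM, against 0.541 to 3.52 CPM in the other 10 libraries. In that library Rpn13R was at 3.80 CPM (0.257 to 1.94 elsewhere) and Rpt6R at 1.74 CPM (0 to 1.07 elsewhere). Prosbeta5R1, Rpt4R, Prosbeta2R1 and Prosbeta2R2 also had their highest level there, at 0.353, 0.380, 0.299 and 0.625 CPM; the part of testis RNA in these values was not tested.

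Prosalpha4T1, a paralogue of Prosalpha4, was lower in every KO than in every WT library of the same age. It had 74, 62 and 44 counts in WT 3 d and 87, 100 and 36 in WT 25 d, against 10, 31 and 7 in KO 3 d and 0 and 11 in KO 25 d. In CPM the WT libraries lay at 1.195 to 2.54 and the KO libraries at 0 to 0.839, with no overlap at either age. Of all genes, 11.8% at 3 d and 18.4% at 25 d were lower in every KO library. The log2 fold change of Prosalpha4T1 was -1.71 (SE 0.98, adjusted p = 0.610 by edgeR) at 3 d. At 25 d it was -3.72 (SE 1.28, adjusted p = 0.161 by edgeR), where DESeq2 gave -3.76 (adjusted p = 0.00401). Without KO 25 d replicate 1 the 25 d value was -2.73 (SE 0.93, adjusted p = 0.331 by edgeR). The constitutive Prosalpha4 had higher means in KO, at log2 0.13 (SE 0.15) and 0.30 (SE 0.17). Rpt6R was also lower in every KO than in every WT library at 25 d.

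Rpt3R, a paralogue of the ATPase gene Rpt3, was higher in every 25 d than in every 3 d library of the same genotype. It was at 0.812, 0.361 and 0.543 CPM in WT 3 d and at 0.961, 1.37 and 1.65 CPM in WT 25 d (log2 1.21, SE 0.69, adjusted p = 0.741 by edgeR). In KO it was at 0.595, 0.216 and 0.553 CPM at 3 d and at 3.44 and 0.987 CPM at 25 d (log2 2.28, SE 0.76, adjusted p = 0.349 by edgeR). Neither difference passed the test, and 13.1% of all genes in WT and 8.03% in KO were higher in every 25 d library. Prosbeta4R1 was also higher in every WT 25 d than in every WT 3 d library. Prosalpha4T2 was at 1.75 CPM in KO 25 d replicate 1 and at 0.135 to 0.622 CPM elsewhere. Prosbeta4R1, Prosalpha6T and Rpn12R stayed at or under 0.595, 0.381 and 0.847 CPM.

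**Figure D5:**
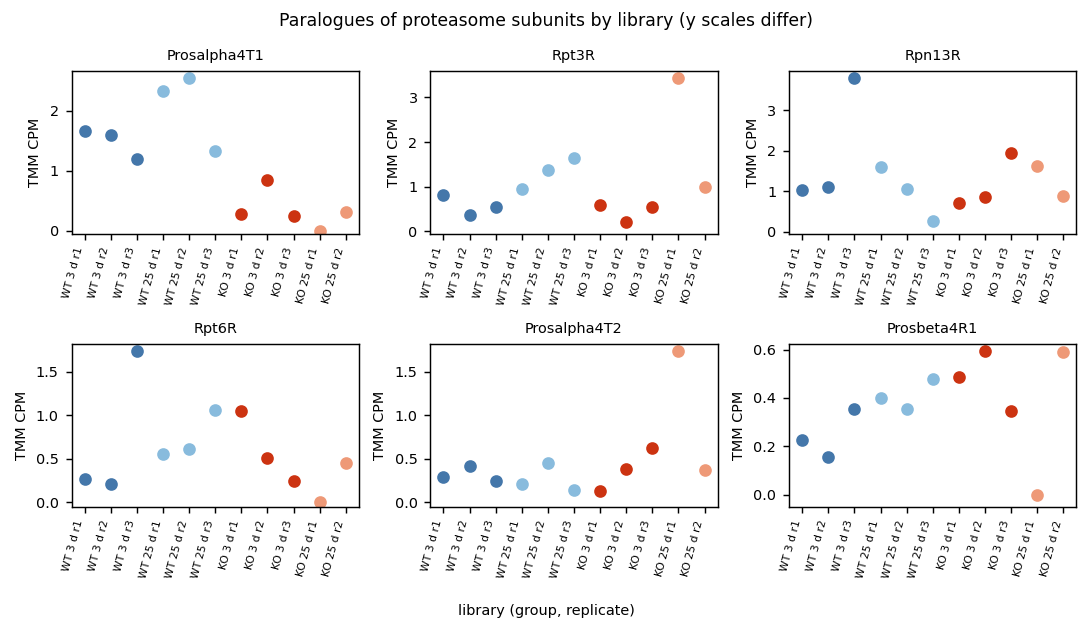
TMM CPM of 6 paralogues in each of the 11 libraries, coloured by group, with a scale of its own in each panel. Prosalpha4T1 is lower in each KO library than in the WT libraries, Rpt3R is higher at 25 d, and Rpn13R and Rpt6R peak in WT 3 d replicate 3.

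Other genes of the ubiquitin and proteasome pathway were split in direction. Of 32 listed, 32 were tested, and with all 11 libraries 0 were called by edgeR in any comparison. At an unadjusted p under 0.05, 2 were higher and 1 lower for KO at 3 d, where 5.64% of all genes were higher and 5.35% lower. For KO at 25 d 5 were higher and 2 lower, where 12.8% and 7.84% of all genes were. For age in KO 2 were higher, where 6.72% of all genes were, and for age in WT and the difference of age changes there were 0. Without KO 25 d replicate 1, 17 of the 32 had a higher mean in KO at 25 d (median log2 0.02). Without the 3 libraries that stood apart, 24 of the 32 had a higher mean in KO at 3 d (median log2 0.12) and 18 at 25 d (median 0.03). Uch-L5 then had log2 0.44 for KO at 3 d, and at 25 d Keap1 had 0.39 and Ubi-p5E -0.49. At 3 d, 22 had a higher and 10 a lower mean in KO, with a median log2 fold change of 0.15, and at 25 d 20 were higher and 12 lower (median 0.10). Among assembly factors and activators 8 of 9 had a higher mean in KO at 3 d. Among them CG9588, the fly counterpart of an assembly chaperone of the base, was at 26.8 ± 1.41 CPM in WT 3 d and at 36.1 ± 1.61 CPM in KO 3 d (SD, n = 3; log2 0.43, unadjusted p = 0.0134, adjusted p = 0.246 by edgeR). Uch-L5, a ubiquitin hydrolase that binds Rpn13, was at 24.8 ± 1.36 and 34.0 ± 1.46 CPM in these groups (log2 0.46, adjusted p = 0.550 by edgeR), and CG5384, the counterpart of the proteasome-bound hydrolase Usp14, had log2 0.39 (adjusted p = 0.384 by edgeR). The polyubiquitin gene Ubi-p5E had a lower mean in KO, 80.7 ± 9.77 CPM against 103 ± 1.92 (log2 -0.35, unadjusted p = 0.0171, adjusted p = 0.280 by edgeR).

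The transcription factor gene cnc was at 553 ± 15.1 CPM in KO 3 d and 589 ± 48.7 CPM in WT 3 d (SD, n = 3), a log2 difference of -0.09 (adjusted p = 0.943 by edgeR). At 25 d it was at 1109 and 580.2 CPM in KO replicates 1 and 2 and at 582 to 651 CPM in WT, so that replicate 1 was high and replicate 2 just below WT. The log2 difference was 0.46 (SE 0.24) with both and -0.08 (SE 0.17) without replicate 1. Of the 5 genes of the group that controls proteasome genes, 3 had a higher and 2 a lower mean in KO at 3 d. E2 and E3 enzymes were split, 3 higher and 4 lower, and 5 of 6 shuttle and segregase genes had a higher mean, with Npl4 as the exception (log2 -0.51, adjusted p = 0.571 by edgeR). With age in WT 22 of the 32 were higher and 10 lower, and in KO 21 and 11, or 16 and 16 without KO 25 d replicate 1. The difference of age changes was above 0 for 15 and below for 17, or 7 and 25 without that library.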

How the data were processed

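Polyadenylated RNA of 11 antennal samples was sequenced with a kit that marks strand, per the labels' protocols. The authors deposited raw counts of read pairs in the exons of each gene. Per the file headers they came from featureCounts 1.4.5-p1 with the strand setting 0 (strand not used); the submitters' processing notes name STAR 2.4.2a and dm6. Of the library columns, 1, named as another KO 25 d library, matched no sample and was not used; the other KO 25 d columns were matched by genotype, age and replicate number, and no other label ties them to the samples. Totals of 24619699 to 55485825 counts per library set the precision. FlyBase IDs were found for 47 of the 47 members and served as names.

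Here, edgeR 4.0.16 in R 4.3.3 was run on all genes: filterByExpr by group (11867 genes left), TMM scaling and a robust quasi-likelihood fit, tested in 1 model of 4 group means over 11 libraries. Standard errors were derived from the test statistic. Calls needed an adjusted p (Benjamini-Hochberg, over all genes tested) under 0.05. A positive log2 fold change means higher in KO or at 25 d. The KO comparisons at an age and the age comparisons share samples and are not independent. Levels per kilobase used the exon lengths deposited with the counts by the authors. Log2 levels in plots are log2(CPM + 0.5).

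Members and lists were chosen with earlier results of these data known. Genes named were 10 fixed members, up to 4 called members and the 2 highest and 2 lowest log2 fold changes per comparison among constitutive members of at least 5 CPM, paralogues with at least 10 counts in a library, and the members highest and lowest per length in each subcomplex; other names were chosen after their values were seen. Alternatives were DESeq2 1.42.0, scaling by RLE or the upper quartile, a stricter filter or none, a block for the replicate number, a fit limited to the groups compared, leaving out each library and, chosen after seeing the data, leaving out 3 libraries, scaling by total counts alone and the block in a fit of the 3 d groups. Samples of WT 3 d and KO 3 d with the same replicate number deviated together from their group means (r = 0.519, 0.140 and 0.554), while those of WT 3 d and WT 25 d did not (-0.0875, -0.0449 and -0.106); WT 3 d replicate 2 correlated best with KO 3 d replicate 1 (0.595), so the numbers did not pair best in every case, and the pairing at 3 d comes from the data, since no label gives a shared batch. The scripts were tested on simulated data. Promoter and protein sequences are not used here.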

Additional observations from a re-analysis of the deposited data

How the results depend on the processing

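For KO at 3 d the median log2 fold change of the constitutive members stayed above 0 under each alternative, from 0.19 without the 3 libraries that stood apart to 0.40 without WT 3 d replicate 1. Leaving out each library gave 0 to 1 called members for KO at 3 d, 0 to 16 for age in KO, 0 to 21 for KO at 25 d and 0 to 9 for the difference of age changes, and medians of -0.25 to 0.39 for age in KO, -0.011 to 0.71 for KO at 25 d and -0.29 to 0.43 for the difference. The lowest medians were those without KO 25 d replicate 1 and the highest those without replicate 2. Without the 3 libraries that stood apart, 6 members were called for KO at 3 d and 1 for age in KO, Prosalpha5 (log2 -0.4556, reversed from 0.05), and the medians were -0.20 for age in KO, -0.0016 for KO at 25 d and -0.16 for the difference. Scaling by total counts alone gave medians of -0.13, 0.031 and -0.23 for these. DESeq2 called 3 members for KO at 25 d, where 9.15% of all genes were called. With the replicate number as a block in the whole model 0 members were called in each comparison. The medians were 0.34 for KO at 3 d, 0.27 for KO at 25 d, 0.05 for age in WT, 0.00064 for age in KO and 0.0043 for the difference. With the block in a fit of the 3 d groups 1 member was called for KO at 3 d, where 8.01% of all genes were. The cause of these shifts was not tested. Of the named members' values under the alternatives, 12 of 619 changed sign for KO at 3 d, 45 of 590 for KO at 25 d, 64 of 590 for age in KO, 62 of 589 for age in WT and 63 of 561 for the difference. For members with under 100 counts in a library, the paralogues, depth limits what can be seen, and the 2 disagreeing KO 25 d libraries limit each comparison that uses them.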
